A study of Mus musculus with 4 samples.

Results

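The genes described here encode the enzymes that add methyl groups to histone lysines and arginines or remove them, other than the members of PRC2. They were taken from the array's gene names by their letters (Mll, Kmt, Kdm, Jmjd, Jarid1, Setd, Suv, Ehmt, Prmt, Smyd, Nsd, Whsc1, and the names Ash1l, Dot1l and Setdb1, leaving out Jarid2 and Kdm5d). The names matched 67 genes. Signal stood well above background on 1 or more of the 4 arrays for 57 of them, against 17732 of the 31703 genes on the array. Of these 57, 6 carry the letters only (Mllt1, Mllt3, Mllt6, Mllt10, Mllt11 and Nsdhl) and are no histone methylation enzymes, which left 51 enzymes. The other 10 of the 67 were not well above background on any array: Kdm6a, Kdm6b, Setd7, Kdm5a, Setdb2, Kdm4c, Kdm4d, Kdm4dl, Smyd4 and Afdn, named Mllt4 in the files. Names here are those of the RefSeq table, so that Mll1 is Kmt2a, Mll3 is Kmt2c, Mll2 is Kmt2d, Whsc1 is Nsd2, Whsc1l1 is Nsd3, Setd8 is Kmt5a and Prmt10 is Prmt9.

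RNA came from erythrocyte/megakaryocyte progenitors, bipotent cells upstream of the red cell and platelet lineages, of C57BL/6 mice. The 4 samples were wild-type progenitors from fetal liver at E14.5, progenitors labelled Ezh2-/- (Ezh2-null) from fetal liver at the same age, wild-type progenitors from adult bone marrow, and progenitors labelled Ezh2-null from adult bone marrow. Each was hybridised to 1 one-colour array, which leaves every comparison of 2 arrays without a replicate and without a test. Values on the 4 arrays are given in that order throughout, as probe intensities scaled to a common 75th percentile, and a difference is a log2 difference of these intensities. Cell isolation, the number and sex of the animals, any Cre line and the removed part of Ezh2 are not given in the sources used here.

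Between 39.0% and 46.4% of 39418 probes were well above background on each array. The bone marrow arrays correlated with each other at 0.982 (Pearson's r of log2 intensity over 12880 probes), and every other pair at 0.915 to 0.937. The Ezh2 probe, which starts 2558 bases into its transcript, read 33.5, 194, 35.4 and 70.0. It was higher on both arrays labelled Ezh2-null than on their wild-type partners, and since the removed part of the gene is not given, it does not check the labels; those arrays are called null-labelled below. Of 12 progenitor markers, 10 to 12 were well above background on each array, but some differed with the comparisons: Kit read 96.0, 362, 414 and 290, Gata2 4.16 (not well above background), 50.6, 262 and 119, Epor 1655, 706, 783 and 991, and Klf1 2643, 1724, 1058 and 3356. Markers of other cells differed between arrays too: the summed level of 11 lymphoid genes was 358, 207, 188 and 3983, with 6, 5, 4 and 8 of them well above background. Most of the last sum came from Vpreb1 and Dntt. The summed level of 12 granulocyte and macrophage genes was 6668, 12975, 5384 and 4798, with 5, 6, 5 and 4 of them well above background and most of it from Csf3r. Summed levels of 10 hepatocyte genes were 679, 136, 52.7 and 93.9, with Alb and Afp not well above background anywhere, and those of 8 late erythroid genes were 117055, 34768, 4644 and 17975. Xist, the RNA of the inactive X chromosome, was well above background on the null-labelled fetal liver array alone, at 743, and 4 Y-linked genes were dark on all arrays. The part of any of these in the differences below was not tested, and fewer cells of a type cannot be told apart from less RNA per cell.

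Histone methylation marks chromatin states. Methylated H3K4 is found at promoters and enhancers of active genes, H3K36 and H3K79 methylation along transcribed genes, and H3K9 and H4K20 methylation in heterochromatin, while H3K27 methylation by PRC2, whose catalytic subunit Ezh2 is the gene that the null labels name, marks silenced developmental genes. Methylation at these sites is set by different methyltransferases, most with a SET domain. Demethylases, some of which act on several sites, are either flavin-dependent amine oxidases or Jumonji-domain dioxygenases. In blood formation Kmt2a maintains stem cells and their Hox genes, and Kdm1a works with the repressor Gfi1b in red cell and megakaryocyte development.

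In fetal liver the enzymes as a group lay slightly higher on the null-labelled array. Of 50 enzymes that could be compared, 13 were at least 2-fold higher, where 15.4% of all 16257 genes compared were, and 6 were at least 2-fold lower, where 13.3% of all genes were. Together these were 19, where 28.7% of all genes passed 2-fold in either direction. The median difference of the enzymes was 0.21, against −0.14 over all genes. In bone marrow the difference between the genotypes was smaller: 3 of 46 enzymes were at least 2-fold higher, with 4.54% of 15279 genes, and 5 at least 2-fold lower, with 7.64% of genes (8 in all, with 12.2%), and the median difference was −0.01, against −0.04 over all genes. Where only 1 of 2 arrays read a probe well above background, the difference is a lower bound, computed against the floor of the dim array, and is given as "at least"; 6 of the 19 differences past 2-fold in fetal liver and 1 of the 8 in bone marrow are of this kind. A further 3 enzymes in fetal liver and 4 in bone marrow have a bound under 2-fold; they are not counted as past it, although their difference may be larger. Lack of replicates and the scaling limit these counts: with spike-in scaling, which lifted the median of all genes to 0.23, 21 enzymes were higher and 2 lower in fetal liver. In bone marrow the split was 3 higher and 3 lower with the percentile taken over all probes, and 3 higher and 1 lower with quantile normalisation.

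**Figure D1:**
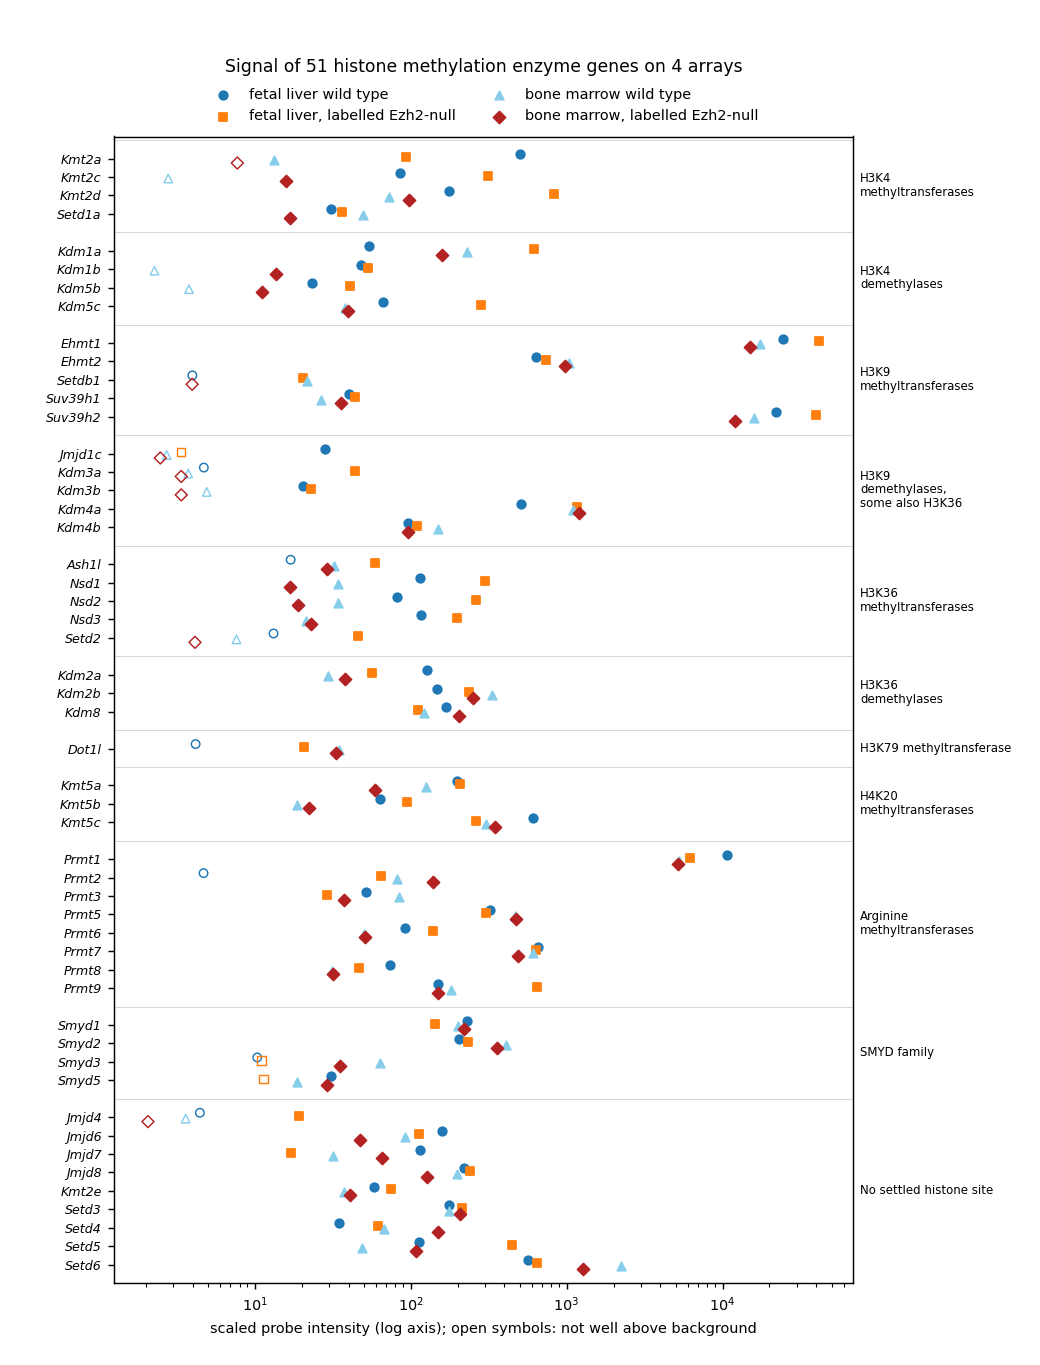
Scaled probe intensity (log axis) of the 51 enzyme genes, grouped by the histone site they act on, with 1 symbol per array; filled symbols are well above background and open symbols are not. Kmt2a spans from 504 on the wild-type fetal liver array to 13.3 on the wild-type bone marrow array, and Ehmt1 and Suv39h2 lie above 10000 on all arrays through probes described in the text.

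The H3K27 demethylases are the enzymes that remove the mark made by PRC2. The name rule took Kdm6a and Kdm6b, while Kdm7a, named Jhdm1d in the files, fell outside it and is given further below. Kdm6a, encoded on the X chromosome, was read by 1 probe at 4.64, 3.08, 2.53 and 2.25, below background on all 4 arrays. Kdm6b was read by 1 probe of its own name, on the minus strand, at 7.95, 4.76, 3.85 and 3.96. A second probe matched to Kdm6b through RefSeq is named 1700064E03Rik in the files and lies on the plus strand. It read 4.44, 2.88, 5.89 and 2.18, and neither probe was well above background on any array. No direction can be given for either gene, since all values lie under the lowest level that probes well above background reached on the same array (19.3, 13.0, 11.1 and 9.98). The first 30 bases of the Kdm6a probe are shown because the absence of a reading for this gene rests on this designed sequence alone. The stretch lies at chrX:17852163-17852192 on the plus strand, in build mm9 as the files give it.
Kdm6a: attgtcttctgagaacgctgaagcaatgtc

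The H3K4 methyltransferases differed in opposite directions in fetal liver. Of 4 compared, 2 were higher on the null-labelled array and 1 lower, and in bone marrow 1 was lower. Kmt2a, the founding member of the Mll family, read 504, 93.1, 13.3 and 7.75, the last not well above background. It was highest on the wild-type fetal liver array, 5.41-fold above the null-labelled one (a difference of −2.44), and low on both bone marrow arrays. Kmt2c, which with Kmt2d monomethylates H3K4 at enhancers in a complex that also holds Kdm6a, read 85.9, 316, 2.79 and 15.9. It was 3.68-fold (1.88) higher on the null-labelled fetal liver array and low in bone marrow, where it was not well above background on the wild-type array. Setd1a, a subunit of the complex that trimethylates H3K4 at promoters, read 30.9, 36.1, 49.6 and 16.8. Its fetal liver difference was 0.23, and in bone marrow it was 2.96-fold lower (−1.56) on the null-labelled array, the largest size among the 7 of the 8 bone marrow differences past 2-fold that were measured on both arrays.

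Kmt2d gave 3 different readings by 3 probes. The probe taken for the gene, chosen by its brightness, read 176, 831, 72.9 and 97.2, a difference of 2.24 in fetal liver. Another probe read 91.6, 84.3, 42.8 and 57.6, a difference of −0.12, and the probe nearest the 3′ end read 126, 91.8, 28.5 and 34.0, a difference of −0.46. All 3 probes were well above background on all arrays, so the higher signal of Kmt2d on the null-labelled fetal liver array rests on 1 of 3 probes. In bone marrow the probes gave like differences of 0.42, 0.43 and 0.26. The first 30 bases of each probe are shown because the gene's direction in fetal liver depends on which is read; they start at bases 16797, 17728 and 18855 of the transcript and lie at chr15:98665201-98665230, chr15:98664147-98664176 and chr15:98663020-98663049 of mm9, all on the minus strand.
Kmt2d first: aactgtgtagcggaggtcgtgacgtttgac
Kmt2d middle: tgagtgggtggaaggggggtaggagaagga
Kmt2d last: ttgtgattttaggtttttgttttgttttaa

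Among the H3K4 demethylases, 2 of 4 were higher on the null-labelled array in fetal liver, and by the probes taken for the genes none was called in bone marrow. Kdm1a, the flavin-dependent demethylase of the CoREST complex also called LSD1, read 53.9, 622, 230 and 160. Its wild-type fetal liver value was the lowest of the 4 and its null-labelled fetal liver value the highest, 11.5-fold (3.53) apart, the largest genotype difference among enzymes measured on both arrays of a source; in bone marrow the difference was −0.53. Kdm5c, an X-linked enzyme that removes trimethylation, read 66.7, 281, 38.1 and 39.9. It was 4.22-fold (2.08) higher on the null-labelled fetal liver array, the array with Xist, and by this probe the bone marrow arrays lay together. A second Kdm5c probe read 28.2, 16.9, 9.20 and 33.7, with the null-labelled fetal liver and the wild-type bone marrow values not well above background. By it the null-labelled array was lower in fetal liver, with a bound of −0.74, opposite to the first, and at least 3.03-fold (1.60) higher in bone marrow. Kdm6a and Suv39h1, the other enzymes of this set on the X chromosome, were dark and at a difference of 0.12. Kdm1b and Kdm5b lay 0.16 and 0.79 higher in fetal liver, while in bone marrow Kdm5b had only a bound of 0.01. Kdm5b's other probe read 4.29, 61.6, 39.3 and 2.21, at least 1.67 higher on the null-labelled array in fetal liver and at least 3.94-fold lower (−1.98) in bone marrow, where the value on that array was not well above background.

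The Kdm1a probe ends in a stretch rich in t, shown with that stretch in capitals because the Kdm1a difference rests on this probe alone; it lies at chr4:136106506-136106535 of mm9 on the minus strand.
Kdm1a: gtctatggTGTTTGTTTGTTTTTGTTTTTT
On the array 18 other probes share a run of 16 bases with it. Of the 16 that could be compared in fetal liver, 2 had at least 2-fold more signal on the null-labelled array and 1 less, where 15.7% of all 19263 probes compared had more and 13.5% less.

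None of the 5 H3K9 methyltransferases was called in fetal liver, where 4 were measured on both arrays and lay under 2-fold and Setdb1 had a bound only. Setdb1, which silences endogenous retroviruses together with Trim28, read 3.99, 20.3, 21.7 and 3.98, well above background on the null-labelled fetal liver and wild-type bone marrow arrays. The fetal liver difference was at least 0.07, a bound close to the floor that leaves its size unknown, and its level was at least 2.17-fold lower (−1.12) on the null-labelled bone marrow array. Ehmt2 read 638, 742, 1033 and 976, and Suv39h1 40.4, 43.8, 26.5 and 35.9, with differences of 0.70 or less in size in every comparison. Ehmt1, the partner of Ehmt2 in mono- and dimethylation, and Suv39h2, a trimethylase of pericentric heterochromatin, each had probes that disagreed.

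Ehmt1 read 24498, 41689, 17306 and 15107 by one probe, and by its other probe 4.73, 13.9, 18.5 and 2.28, well above background only on the wild-type bone marrow array. Suv39h2 read 21962, 39778, 15835 and 12046 by one probe, and 4.12, 13.2, 3.63 and 3.61 by the other, dark on all arrays. The bright probe of each gene holds a run of alternating g and t, of which the longest unbroken stretch is in capitals below, and the other probe holds none. The Ehmt1 stretches lie at chr2:24646425-24646454 and chr2:24646795-24646824 and the Suv39h2 stretches at chr2:3373216-3373245 and chr2:3375624-3375653 of mm9, all on the minus strand.
Ehmt1 bright: GTGTGTGTGTGagtgtgtgtgactcttcta
Ehmt1 other: ccacacgctatgatgatgatgaataaactc
Suv39h2 bright: ttcggggtgtgtgtgtcTGTGTGTGTGTGT
Suv39h2 other: tcactgtttgcttacttgagaagtcggaat
The letters TGTGTGTGTG, read along the probe only, occur in 149 of the 39418 probes (0.378%), and among the 78 enzyme probes in these 2. These 149 probes had median intensities of 10557, 19666, 7261 and 5840, where the median over all probes was 12.7, 11.9, 7.67 and 6.80, and in fetal liver the null-labelled array exceeded the wild type by 2-fold or more in 33 of 147 compared and fell short of it by as much in 0, where the shares over all probes were 15.7% and 13.5%. The differences of Ehmt1 (0.77 in fetal liver, −0.20 in bone marrow) and Suv39h2 (0.86 and −0.39) are therefore differences of probes of this kind.

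**Figure D2:**
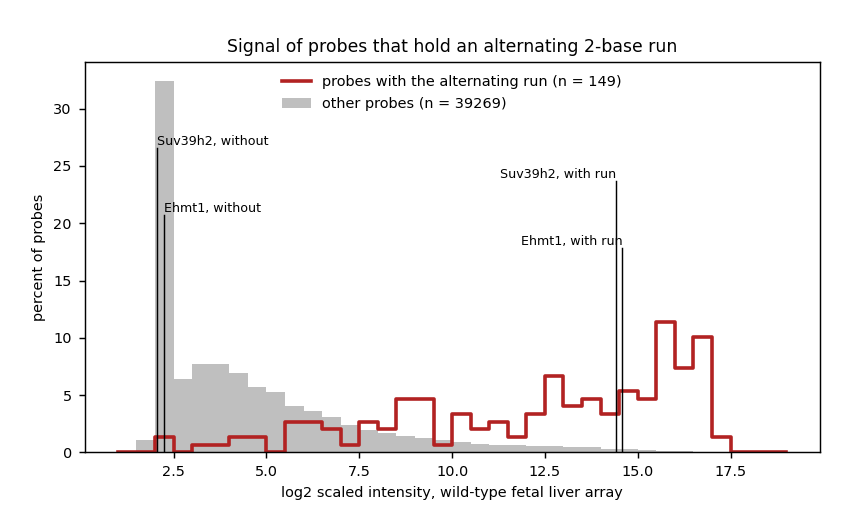
Share of probes (percent, vertical axis) by log2 scaled intensity on the wild-type fetal liver array (bins of 0.5), for the 149 probes that hold the alternating run (line) and the 39269 other probes (bars); vertical lines mark the bright and the other probe of Ehmt1 and Suv39h2. The probes with the run lie mostly at the bright end, with 50.3% above an intensity of 10000, and the other probes of both genes lie at the dim end.

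The H3K9 demethylases, some of which also act on H3K36, held 2 enzymes higher and 1 lower of 5 in fetal liver. Kdm4a, which removes trimethylation from both sites, read 513, 1168, 1095 and 1200. The wild-type fetal liver array was the low one, 2.28-fold (1.19) under the null-labelled, and the other 3 arrays lay together. Its second probe read 21.9, 10.1, 11.2 and 7.52, well above background on the wild-type fetal liver array alone, and so was lower on the null-labelled one, with a bound of −0.76. Kdm3a, a demethylase of mono- and dimethylated H3K9, read 4.72, 44.0, 3.75 and 3.38 and was measured on the null-labelled fetal liver array alone, at least 2.28-fold above the wild type. Jmjd1c, of the same family, read 28.3, 3.39, 2.73 and 2.48 and was measured on the wild-type fetal liver array alone, so that it was at least 2.18-fold lower on the null-labelled one. Kdm3b and Kdm4b lay 0.16 and 0.20 higher in fetal liver, and neither of the 2 that could be compared in bone marrow differed by 2-fold.

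Of the site groups, the H3K36 methyltransferases had the largest share past 2-fold. On the null-labelled fetal liver array 4 of 5 were higher, 2 of them by bounds, and 0 lower. In bone marrow 1 of 4 was lower. The higher ones were Ash1l, Nsd1, Nsd2 and Setd2, whose probes start 4813 bases or more into their transcripts. Of all genes with probes from base 3779 on, 30.6% were higher in fetal liver, and the part of probe position was not tested. None of these enzymes stayed past 2-fold under every alternative processing. Nsd1, a mono- and dimethyltransferase, read 115, 298, 34.2 and 16.8. On the null-labelled array it was above the wild type by 2.59-fold (1.37) in fetal liver and 2.03-fold below it (−1.02) in bone marrow, with both fetal liver arrays above both bone marrow arrays. A second Nsd1 probe read 15.4, 40.7, 23.0 and 11.6 and went the same ways, at least 1.08 higher in fetal liver and −0.99 in bone marrow. Nsd2 read 81.5, 261, 34.3 and 19.0, a difference of 1.68 (3.21-fold) in fetal liver and −0.85 in bone marrow. Its other probe gave at least 0.36 and −0.26, the same directions at a smaller size.

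Ash1l, a further H3K36 methyltransferase, read 17.0, 59.2, 32.3 and 28.9. It was not well above background on the wild-type fetal liver array and at least 3.07-fold (1.62) higher on the null-labelled one. Setd2, which trimethylates H3K36 behind elongating RNA polymerase, read 13.2, 46.0, 7.65 and 4.15. Its probe was printed 10 times on each array, and all 10 spots were well above background on the null-labelled fetal liver array, 1 on the wild-type fetal liver array and 0 on either bone marrow array. The spots ranged from 40.0 to 52.3 on the null-labelled fetal liver array and from 4.26 to 20.7 on the wild-type one, and did not overlap; they measure the array's own error, not that between samples. The bound for Setd2 in fetal liver was at least 2.38-fold. Nsd3 read 117, 200, 21.4 and 23.1, under 2-fold apart in each source.

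The H3K36 demethylases went the other way or did not reach 2-fold. Kdm2a, a CpG-island-binding enzyme, read 128, 56.6, 29.6 and 37.9 and was 2.26-fold lower (−1.18) on the null-labelled fetal liver array. Its other probes gave −0.82 (the probe named Gm4560 in the files) and −0.08. The last is smaller than the median SD between spots of 1 probe on these arrays (0.11 to 0.15 log2). It shares the sign but gives no clear direction. Kdm2b and Kdm8 differed by 0.68 and −0.58 in fetal liver and by −0.40 and 0.74 in bone marrow. Dot1l, the H3K79 methyltransferase, read 4.19, 20.7, 34.6 and 33.1; it was not well above background on the wild-type fetal liver array, and the bone marrow arrays lay 0.07 apart.

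**Figure D3:**
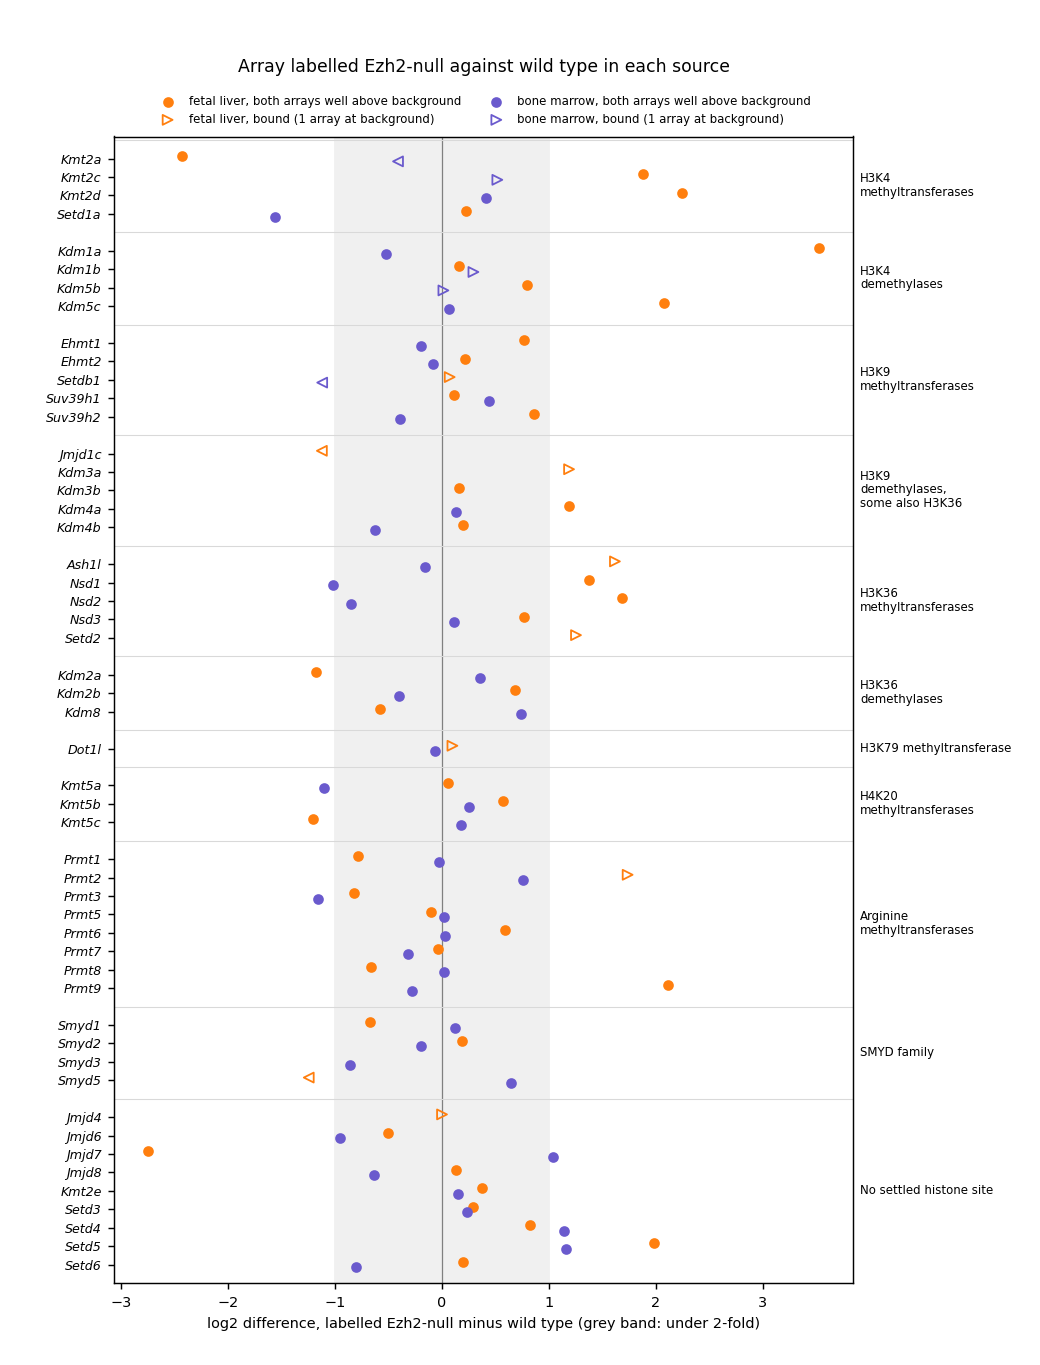
Log2 difference of the null-labelled minus the wild-type array for each enzyme in fetal liver (orange) and bone marrow (blue), by histone site; open triangles are bounds that point away from the array at background, and the grey band is under 2-fold. The fetal liver values spread from −2.75 (Jmjd7) to 3.53 (Kdm1a) and the bone marrow values from −1.56 (Setd1a) to 1.16 (Setd5), most of them inside the band.

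H4K20 methyltransferases showed 1 lower of 3 in each source, by different members. Kmt5c, which makes di- and trimethylated H4K20, read 611, 264, 306 and 346, with the wild-type fetal liver array high and 2.31-fold above the null-labelled (−1.21). Kmt5a, the monomethyltransferase that acts in mitosis and replication, read 200, 208, 126 and 58.9 and was 2.15-fold lower (−1.10) on the null-labelled bone marrow array. Its other probe read 302, 149, 49.1 and 96.4, which is a difference of 0.97 there and of −1.02 in fetal liver, so the probes disagreed in both sources. Kmt5b lay within 0.57 of the wild type in each source.

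Among 8 arginine methyltransferases, 2 were higher in fetal liver and 1 lower in bone marrow. Prmt9, which dimethylates a splicing factor, read 150, 647, 183 and 150. The null-labelled fetal liver array stood apart from the other 3, 4.32-fold (2.11) above the wild type. Prmt2 read 4.70, 64.3, 82.1 and 139, not well above background on the wild-type fetal liver array and at least 3.33-fold (1.74) higher on the null-labelled one. Prmt3, whose main known substrate is a ribosomal protein, read 51.6, 29.2, 84.3 and 37.6, a difference of −0.82 in fetal liver and of −1.16 (2.24-fold lower on the null-labelled array) in bone marrow. Prmt1, which makes most asymmetric dimethylarginine, read 10738, 6221, 5262 and 5159 and Prmt5, the main symmetric enzyme, 325, 303, 469 and 476, both under 2-fold by genotype. Prmt6 and Prmt7 each had a probe that disagreed with the one taken for the gene: in fetal liver the differences were 0.59 and −1.13 for Prmt6, and −0.04 and a bound of −2.94 for Prmt7. In bone marrow they were 0.03 and −1.57 for Prmt6, whose other probe read 54.5, 24.9, 136 and 45.8, and −0.32 and 0.97 for Prmt7.

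In the SMYD family, 1 of 3 compared in fetal liver was lower: Smyd5 read 30.8, 11.4, 18.7 and 29.2, at least 2.37-fold lower (−1.25) on the null-labelled array, where it was not well above background. Smyd1 and Smyd2 in both sources, and Smyd3 in bone marrow, did not reach 2-fold by genotype.

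Enzymes with no settled histone site gave the 3 genes that were at least 2-fold higher in bone marrow. Jmjd7, a Jumonji protein with reported hydroxylase activity, read 114, 17.0, 32.0 and 65.5. On the null-labelled array it was 6.73-fold lower (−2.75) in fetal liver, and in bone marrow it was 2.05-fold (1.03) above the wild type. Setd5 read 113, 448, 48.9 and 109, with null-labelled above wild type by 3.96-fold (1.99) in fetal liver and by 2.23-fold (1.16) in bone marrow. By the probes taken for the genes it was the only enzyme past 2-fold in the same direction in both sources. The other Prmt6 probe, given above, was past 2-fold lower on the null-labelled array in both (−1.13 and −1.57). Setd4 read 34.8, 61.5, 67.7 and 150, a difference of 0.82 in fetal liver and of 1.14 (2.21-fold) in bone marrow. The bone marrow null-labelled array is also the one with the high lymphoid sum. Most of that sum came from Vpreb1, at 2202 against 10.6 on the wild-type array, and Dntt, at 1381 against 76.6. Vpreb3, Cd79a, Cd79b and Cd3e were higher there too, at lower levels. Rag2 and Pax5 lay near their wild-type values, and Ebf1, Rag1 and Il7r were dark on all arrays. The part of these in the differences above was not tested.

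Enzymes with probes far along a transcript made up much of the fetal liver count. The probe taken for a gene started at a median of 3957 bases into the transcript for the 51 enzymes, against 1429 for all detected genes, and 26 of the 51 lay in the top 10% of positions (from base 3779). Over all genes measured on both fetal liver arrays the median difference was −0.49 in the lowest 10% of positions and 0.22 in the top 10%, while in bone marrow the medians were −0.01 and −0.07. Of the 26 enzymes in the top 10%, 10 were higher and 3 lower in fetal liver, where 30.6% of all genes in that top 10% were higher and 5.91% lower. Of the 24 compared at other positions, 3 were higher and 3 lower, where 13.5% of all genes there were higher and 14.2% lower. With the trend on position removed, 10 enzymes were higher and 5 lower. The part of probe position in the differences of single enzymes was not tested.

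**Figure D4:**
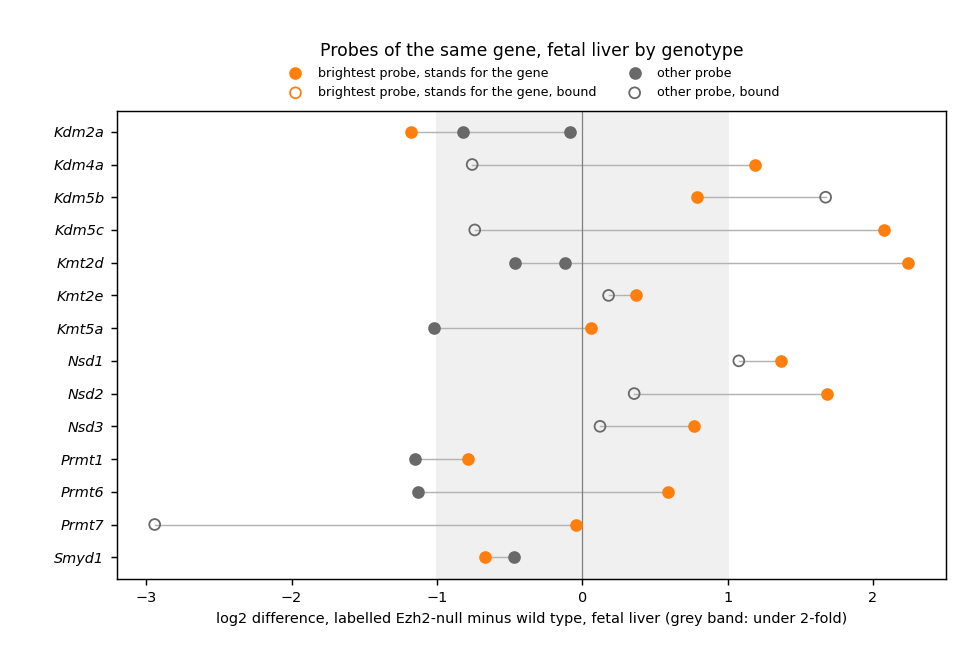
Log2 difference of the null-labelled minus the wild-type fetal liver array for each probe of the 14 enzymes with at least 2 probes that could be compared; orange marks the brightest probe, which stands for the gene, open circles are bounds, and the grey band is under 2-fold. Probes of Kmt2d, Kdm5c and Kdm4a lie on both sides of 0, and those of Nsd1, Nsd2 and Kdm2a on the same side.

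Agreement between probes could be read for 6 of the 19 enzymes past 2-fold in fetal liver. All other probes had the same sign for 3 (Nsd1, Nsd2 and Kdm2a) and the opposite for 3 (Kmt2d, Kdm5c and Kdm4a). For Kdm2a, 1 of these probes lay at only −0.08. A further probe past 2-fold in the same direction was found for 1, Nsd1. For the 8 bone marrow differences this could be read for 2, of which Nsd1 had the same direction and Kmt5a the opposite. With normexp background correction, whose offset of 50 shrinks differences at low intensity, 0 of the 8 bone marrow differences and 9 of the 19 in fetal liver were past 2-fold.

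Both wild-type arrays were compared next, as were both null-labelled arrays, to read how the enzymes differ between adult bone marrow and fetal liver in each genotype. These comparisons use the same 4 arrays as those above and are not independent of them. In wild type, 6 of 48 enzymes were at least 2-fold higher in bone marrow (13.1% of 15382 genes) and 15 at least 2-fold lower (31.9% of genes; 21 in all, with 45.0% of genes), with a median of −0.55, against −0.58 over all genes. Between the null-labelled arrays 5 of 50 enzymes were higher (10.4% of 16688 genes) and 24 lower (26.9% of genes; 29 in all, with 37.2%), with a median of −0.93, against −0.51. The split depends on scaling. In wild type it was 13 higher and 8 lower with the percentile over all probes, 10 and 10 with quantile normalisation, and 21 and 3 with spike-in scaling, which moved the median of all genes to 0.71. Between the null-labelled arrays it was 13 and 17, 8 and 18, and 14 and 14, with medians of all genes of 0.10, 0.00 and 0.36.

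A pair of H3K4 methyltransferases gave the largest source differences in wild type, with bounds ranked at their limit. Kmt2a was 38.0-fold lower in bone marrow (−5.25) and Kmt2c at least 7.72-fold lower (−2.95). Nsd3 was 5.47-fold lower (−2.45), Kdm2a 4.32-fold (−2.11) and Kdm1b at least 4.31-fold (−2.11). Kdm1b, the second flavin-dependent H3K4 demethylase, read 48.0, 53.7, 2.28 and 13.6, low on both bone marrow arrays. The 3 probes matched to Kdm2a agreed here, at −2.06 (the probe named Gm4560 in the files), −2.11 and a bound of −2.69. Nsd3's other probes lay near the floor of the fetal liver arrays and gave bounds of 0 in wild type, with no direction.

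Ranked in the same way, the largest higher values in wild-type bone marrow were those of Kdm1a (2.10, 4.27-fold), Prmt2 (at least 2.09), Setd6 (1.98, 3.95-fold), Smyd3 (at least 1.72) and Kdm2b (1.17). Setd6, a methyltransferase with a known non-histone substrate in NF-kB signalling, read 563, 644, 2221 and 1268, with both bone marrow arrays above both fetal liver arrays. Smyd3 read 10.4, 11.0, 63.6 and 35.1, well above background in bone marrow alone, and a second probe read 4.70, 3.12, 78.0 and 55.3 with the same pattern. Kdm2b, which recruits a Polycomb complex to CpG islands, read 148, 237, 331 and 251.

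Between the null-labelled arrays, all 4 H3K4 methyltransferases, all 4 H3K4 demethylases and all 5 H3K36 methyltransferases that could be compared were at least 2-fold lower in bone marrow, by the main scaling and the probes taken for the genes. Their medians were −3.16, −1.97 and −3.11. The largest were Kmt2c (−4.31), Nsd1 (−4.15), Nsd2 (−3.78), Kmt2a (a bound of −3.22) and Nsd3 (−3.11), with bounds ranked at their limit. The other probes of Nsd1 and Nsd2 gave −1.81 and −0.65, smaller in size, and those of Nsd3 −0.92 and at least 0.96 higher. The other probes of Kmt2d gave −0.55 and −1.43, Kdm5b's a bound of −2.63, and the second probe of Kdm5c was at least 1.99-fold higher in bone marrow, opposite to the first. Higher in bone marrow were Jmjd7 (1.95), Smyd3 (at least 1.44), Setd4 (1.28), Smyd5 (at least 1.17) and Prmt2 (1.11). Of 25 enzymes with probes in the top 10% of positions, 18 were lower and 0 higher, where 46.8% of all genes in that top 10% were lower; of 25 at other positions 6 were lower and 5 higher, where 24.4% of all genes were lower.

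**Figure D5:**
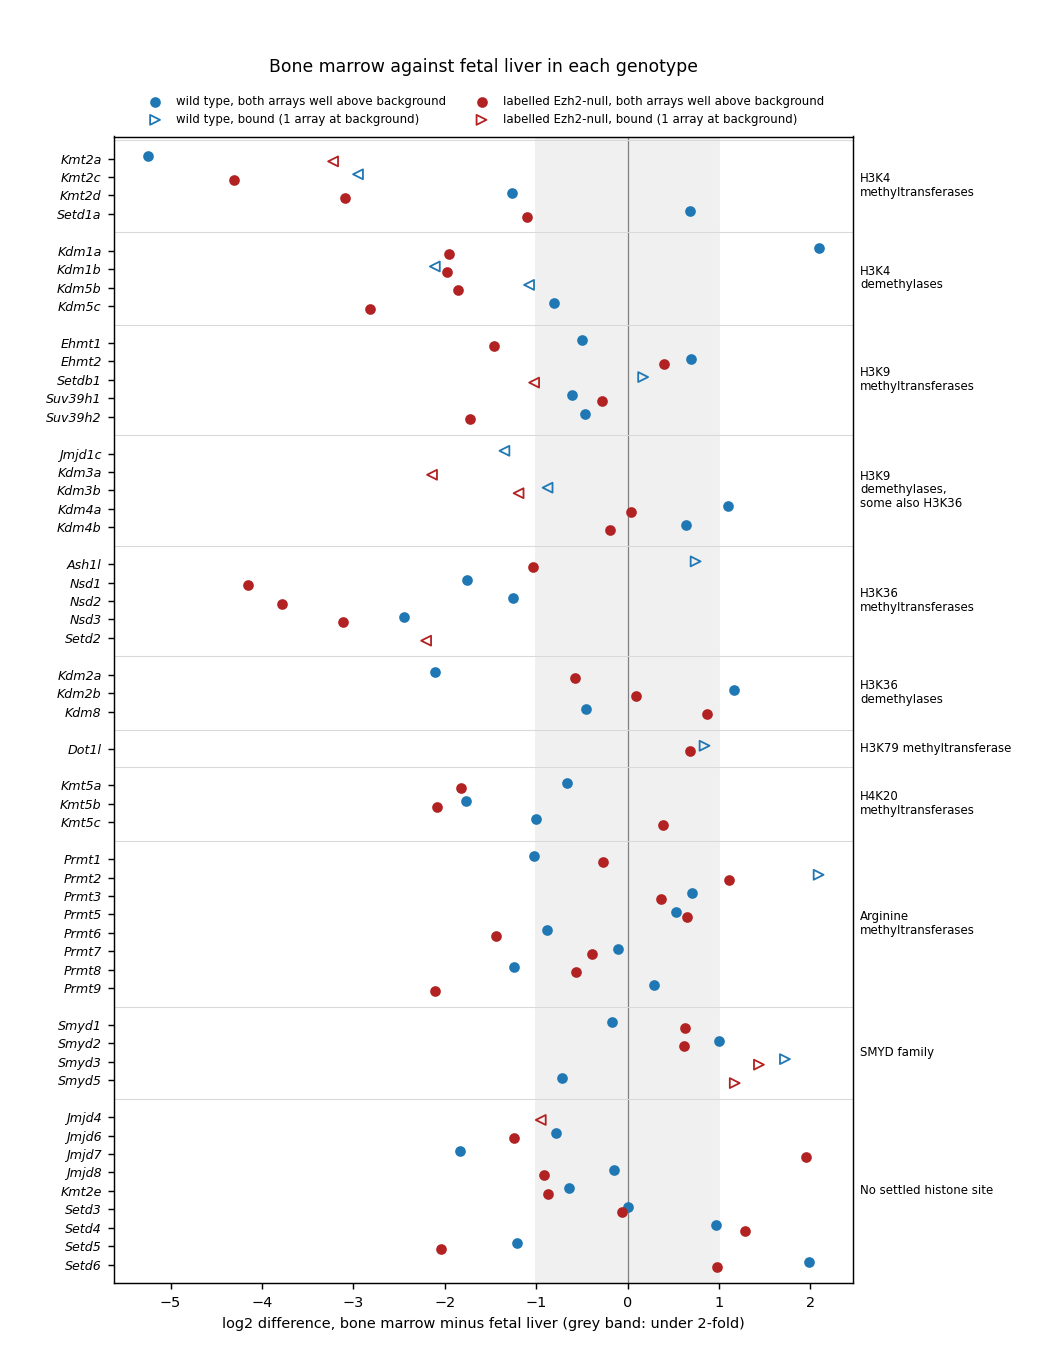
Log2 difference of bone marrow minus fetal liver for each enzyme in wild type (blue) and between the null-labelled arrays (red), by histone site, with open triangles as bounds and the grey band under 2-fold. Kmt2a, Kmt2c and Nsd3 lie far to the left in both genotypes, and Kdm1a lies at 2.10 in wild type and at −1.96 between the null-labelled arrays.

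Some differences stayed past 2-fold in the same direction under every alternative processing that gave a value. In fetal liver by genotype these were 6 of 19 (Jmjd7, Kdm1a, Kmt2a, Kmt2c, Prmt9 and Setd5), and in bone marrow by genotype 0 of 8. In wild type by source they were 3 of 21 (Kmt2a, Kmt2c and Setd6), and between the null-labelled arrays 11 of 29 (Kdm1a, Kdm3a, Kmt2a, Kmt2c, Kmt2d, Kmt5b, Nsd1, Nsd2, Prmt9, Setd2 and Setd5). The enzymes listed for fetal liver and for wild type by source had 1 probe each. Averaging a gene's probes, or taking the probe nearest the 3′ end, could therefore not change their values.

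The genotype differences of the sources were set against each other as a difference of differences, called at 4-fold. Of 45 enzymes, 5 were more positive in fetal liver (8.83% of 13459 genes): Kdm1a (4.05), Nsd2 (2.53), Nsd1 (2.39), Prmt9 (2.39) and Kdm5c (2.01). Jmjd7 was more negative (−3.78), as 3.22% of genes were. In Kdm1a, Nsd2, Nsd1 and Prmt9 the bone marrow difference was below 0, and in Kdm5c it was 0.07 by the probe taken for the gene. The second Kdm5c probe went the other way, with a bound of −0.74 in fetal liver and of 1.60 in bone marrow. The place of Kdm5c in this list therefore depends on the probe. With 1 array in each group the difference was not tested.

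Across both sources, limma with source and genotype as additive terms left 1 residual degree of freedom. That residual is how unlike the genotype differences of the sources are. The SEs and p below therefore do not measure variation between replicate samples. Values under the highest floor of the 4 arrays, 19.3, were raised to it before the fit. Among genes named below, this replaced both bone marrow values of Kdm1b, the wild-type bone marrow value of Kmt5b and the wild-type fetal liver value of Dot1l. The standard errors of these genes therefore rest in part on the floor. None of the 51 enzymes passed an adjusted p of 0.05 for genotype, nor did any of 17668 genes (0.0%), and the lowest adjusted p among the enzymes was 0.802. At an unadjusted p under 0.05 there were 1 enzyme higher and 1 lower, against 188 and 236 of all genes. Those were Setd4, at 0.98 ± 0.15 (SE), and Prmt3, at −0.99 ± 0.15. For source 0 of 51 passed as well, as did 0.0% of all genes, with a lowest adjusted p by limma of 0.278. At an unadjusted p under 0.05 there were 3 higher (Setd4, Dot1l and Prmt5) and 5 lower (Kdm1b, Kmt5b, Nsd3, Kmt2e and Jmjd6), against 919 and 2149 of all genes.

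Proteins that work with these enzymes were read in fixed lists. For all lists below, the shares of all genes at least 2-fold higher and lower were 15.4% and 13.3% in fetal liver. In bone marrow these shares were 4.54% and 7.64%. The medians of all genes were −0.14 and −0.04. Of 11 H3K4 complex partners, the null-labelled fetal liver array was 2-fold or more above the wild type for 5 and below it for 0, with a median of 0.33; in bone marrow 0 of 10 were higher and 2 lower. Ncoa6, a subunit of the Kmt2c and Kmt2d complexes, read 345, 1728, 358 and 173, a difference of 2.32 in fetal liver and −1.05 in bone marrow. Psip1, which tethers Kmt2a to chromatin, read 18.0, 85.3, 33.9 and 11.2, a bound of 2.14 in fetal liver and of −1.59 in bone marrow. Ash2l, a core subunit, read 613, 1875, 1114 and 685 (1.61 and −0.70), and Hcfc1, a Setd1a partner, 2010, 5621, 4238 and 4890 (1.48 and 0.21). The core subunits Wdr5 and Dpy30 differed by 0.10 and −0.91 in fetal liver.

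Of the LSD1 and CoREST partners, 3 of 8 were higher in fetal liver and 0 lower, and 1 of 7 was higher and 1 lower in bone marrow. Rcor2, a CoREST scaffold, read 192, 1028, 77.8 and 235 and was higher on the null-labelled array in both sources, by 2.42 and 1.60. Hdac2, a deacetylase of the same complex, read 16.9, 58.4, 22.7 and 8.48, a bound of 1.60 in fetal liver and of −1.18 in bone marrow. Rcor1 read 4.10, 48.6, 27.6 and 23.0, at least 1.33 higher in fetal liver. Gfi1b, which recruits the complex in this lineage, read 1156, 907, 1753 and 1384 and differed by −0.35 and −0.34.

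H3K9 and heterochromatin partners had 2 of 6 higher and 1 lower in fetal liver and 0 of 7 higher and 1 lower in bone marrow. Cbx3, a reader of methylated H3K9, read 840, 4036, 655 and 391 (2.26 in fetal liver, −0.75 in bone marrow). Cbx5, a reader of the same family, read 55.3, 19.96, 55.5 and 11.0 and was lower on the null-labelled array in both sources, with −1.47 and a bound of −2.34. Wiz, an Ehmt1 and Ehmt2 partner, differed by 1.12 and 0.39.

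H3K79 elongation partners had 1 of 7 higher and 0 lower in fetal liver and 1 of 8 in each direction in bone marrow. The higher gene in fetal liver was Mllt10, the Dot1l cofactor that met the letters of the name rule, at 18.5, 186, 30.4 and 5.53, at least 9.61-fold higher in fetal liver and at least 3.05-fold lower in bone marrow. In bone marrow Ell, an elongation factor, was 1.10 higher. Arginine methylation partners, Carm1 among them, had 0 of 8 higher and 1 lower in fetal liver, Coprs (−1.52), a Prmt5 adaptor, and 0 of 7 past 2-fold in bone marrow.

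Outside the names of the rule, 13 further methyl-lysine enzymes had 2 of 7 higher in fetal liver and 0 of 6 past 2-fold in bone marrow. Ezh1, the other H3K27 methyltransferase of PRC2, read 8.05, 235, 123 and 94.2, not well above background on the wild-type fetal liver array and at least 3.61 log2 higher on the null-labelled one. Kdm7a, a demethylase of H3K9 and H3K27, is outside the rule because the files name it Jhdm1d. It read 4.30, 88.9, 2.51 and 2.38 and was measured on the null-labelled fetal liver array alone, at least 2.20 higher than wild type.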

How the data were processed

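Each of 4 samples was labelled from 250 ng of total RNA with Cy3 and hybridised to 1 Agilent array, per the labels' protocols. The authors' files hold spot intensities from Feature Extraction 10.7.3.1 with mm9 probe positions, per the file headers; their processed intensity is background-subtracted and detrended within the array, with nothing done between arrays. The deposited flags of 0 or 1 mark spots well above background, an other value with no unit. Flagged and control spots were left out, spots averaged per probe, arrays brought to the same 75th percentile (taken over 12880 probes that all 4 read well above background), and the brightest probe taken for a gene. Names came from RefSeq (GRCm38.p6), for names only. Differences of log2 intensity computed from the authors' values were called at 2-fold without a test; limma 3.58.1 fitted source and genotype together, with Benjamini-Hochberg adjustment. All arrays shared 1 slide and 1 scan date, so no batch could be compared. Precision is limited by the number of arrays. Named genes are the H3K27 demethylases, enzymes past 2-fold by genotype or 4-fold in the difference of differences, the 5 largest each way by source, and up to 4 partners per list; probes that disagree, and genes set beside these, were added. The series' value table was used as an alternative. Members and lists were chosen with earlier results of these data known. Fits were tested on simulated data.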

Additional observations from a re-analysis of the deposited data

Results flagged for a closer look

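By the probes taken for the genes, 3 of the genes matched by name had genotype differences past 2-fold in opposite directions in the sources. The share of all genes with such a pattern was not counted. Among the partner genes, Ncoa6 (2.32 and −1.05), Psip1 and Hdac2 (both by bounds) were also past 2-fold higher in fetal liver and lower in bone marrow. The other probe of Kdm5b was too, by bounds. With 1 array in each group, the difference between the sources was not tested. Jmjd7 was lower on the null-labelled array in fetal liver (−2.75 log2) and higher in bone marrow (1.03). Nsd1 was higher in fetal liver (1.37) and lower in bone marrow (−1.02), and its second probe gave at least 1.08 higher and −0.99. Mllt10, a Dot1l cofactor that shares letters with the enzymes' names, was higher in fetal liver by at least 3.26 and lower in bone marrow by a bound of −1.61.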

How the results depend on the processing

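The 10 alternatives were fixed with earlier results known. The 77 called enzyme differences took 738 values under them, part of which could not change. The series' value table repeats the scanner values to within 0.5%. A gene with 1 probe keeps its value when probes are averaged or chosen by position. A gene well above background on all arrays keeps it with detection on every array and with no filter. Of all 738, 607 stayed past 2-fold in the same direction and 118 fell under it in that direction. A further 5 were bounds of 0 with no direction, and 8 were opposite. Opposite were Kmt2d in fetal liver by the probe nearest the 3′ end (−0.46), Kdm5b in wild type by source with all probes averaged (0.28), Ash1l between the null-labelled arrays with the trend on probe position removed (0.13) and, with spike-in scaling in wild type by source, Kmt2d (0.052), Nsd2 (0.071), Prmt1 (0.29), Prmt8 (0.076) and Setd5 (0.11). Counts that moved by over 1.5 times are given by setting. In fetal liver, where 13 enzymes were higher and 6 lower, normexp gave 7 and 2, spike-in scaling 21 and 2, and detection on every array 8 and 3. In bone marrow, where 3 were higher and 5 lower, normexp gave 0 and 0, no filter 6 higher, the percentile over all probes 3 lower and quantile normalisation 1 lower. In wild type by source (6 higher, 15 lower), normexp gave 1 higher, quantile normalisation 10 higher, the percentile over all probes 13 and 8, spike-in scaling 21 and 3, and the trend removed 14 and 8. Between the null-labelled arrays (5 higher, 24 lower), normexp gave 0 higher, the percentile over all probes 13, quantile normalisation 8, the trend removed 8, spike-in scaling 14 and 14, and detection on every array 2 and 15. The difference of differences (5 more positive, 1 more negative) became 1 and 0 with normexp, 11 and 4 with no filter, 8 more positive with spike-in scaling, 3 more positive with the trend removed, and 2 more negative with the percentile over all probes, quantile normalisation and all probes averaged. For source, limma passed 2 enzymes with detection on every array and 9 with no filter; for genotype it passed 0 under all 10. Detection on every array compared 36 enzymes, and the causes of the other shifts were not tested. The series' value table gave the counts of the scanner files throughout.

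No paired analysis was possible because the samples carry no replicate numbers, and leaving out an array would leave no group or no residual degree of freedom. Signal over background limits the dim genes: 10 of the 67 genes had no reading, and bounds depend on each array's floor. Spots of 1 probe differed by a median SD of 0.08 to 0.15 log2, which covers the array's own error only.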
